A study of Mus musculus with 8 samples.

Results

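The miRNAs described here are those cut from hairpins in introns of the myosin heavy chain genes of the heart, namely miR-208a from Myh6, miR-208b from Myh7 and miR-499 from Myh7b. They were taken by name, as both arms of each of the 3 hairpins, from the tables of 697 mature mouse miRNAs. Of the 6 names, 5 were found (mmu-miR-208a-3p, mmu-miR-208a-5p, mmu-miR-208b-3p, mmu-miR-499-5p and mmu-miR-499-3p, here without the species prefix), and all 5 had counts in every library and passed the minimum mean of 100 counts that left 223 miRNAs for testing. miR-208b-5p was not analysed here.

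Small RNA was sequenced from cardiomyocytes that had been isolated from single mouse hearts by Langendorff perfusion, in which enzyme solution is driven through the coronary vessels to free the muscle cells. In the TAC group (transverse aortic constriction, a band around the aortic arch that makes the left ventricle pump against a high load until it fails), 4 male mice were operated on at 2 months of age, and in the sham group 4 male mice had the operation without the constriction. The methods put the heart examination 14 weeks after surgery and elsewhere give 14 weeks as the age of the mice at cell isolation, so the age at harvest is not settled by the sources used here. Every library came from another mouse, no genotype or strain is given in the sources used here, and the question was how the miRNAs of heart muscle cells differ once the heart has failed.

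Hearts build their thick filaments from the fast α-myosin heavy chain, encoded by Myh6, and the slow β-myosin heavy chain, encoded by Myh7. In mice the β form prevails before birth and the α form in the adult, and pressure overload brings Myh7 back, a shift long used as a sign of the fetal gene program. Because miR-208a and miR-208b are spliced out of the transcripts of these genes, the ratio of miR-208b to miR-208a within a library is a read of that shift, and miR-499 comes from the related Myh7b, whose transcript in mammalian heart and slow skeletal muscle serves largely as a source of the miRNA.

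The mature sequences are shown because they set which of these miRNAs share targets and which could be mistaken for each other in counting. All are from RefSeq on GRCm38.p6 (mm10), written 5′ to 3′ with the seed, bases 2 to 8, in capitals.

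miR-208a-3p: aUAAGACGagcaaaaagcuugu
miR-208b-3p: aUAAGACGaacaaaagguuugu
miR-499-5p: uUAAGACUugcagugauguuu
miR-208a-5p: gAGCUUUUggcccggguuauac
miR-499-3p: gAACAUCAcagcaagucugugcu

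The 3 leading arms, miR-208a-3p, miR-208b-3p and miR-499-5p, had UAAGAC in common at bases 2 to 7, and no other of the 1679 mature mouse miRNAs in RefSeq had it there. miR-208a-3p and miR-208b-3p shared the whole seed UAAGACG and were identical at 19 of 22 positions. Counted from 1 at the 5′ end of miR-208a-3p, they differed by G10A, A16G and C18U, so that a read assigned to one of them rests on 3 bases, and how the authors treated reads that fit both is not given in the sources used here. miR-499-5p matched miR-208a-3p at 12 of the 21 positions that could be compared.

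Each hairpin lay on the strand of its host gene, inside an intron and clear of every annotated exon of that gene (GENCODE vM21, GRCm38). Mir208a, at chr14:54949060-54949142 on the minus strand, was in intron 29 of the full-length Myh6 transcript, which has 39 exons. Mir208b was found 26557 bases away, at chr14:54975700-54975776 on the minus strand, in intron 31 of a Myh7 transcript of 41 exons. Mir499 was at chr2:155622880-155622958 on the plus strand, in intron 19 of the Myh7b transcript of 42 exons. miR-208a-3p itself spanned chr14:54949072-54949093, miR-208b-3p chr14:54975710-54975731 and miR-499-5p chr2:155622893-155622913.

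The sham libraries held between 4005668 and 5392576 miRNA counts and the TAC libraries between 5507169 and 7798943. Other miRNAs of striated muscle filled a large part of them, as the label cardiomyocytes has it, with a list of 12 summing to 247123 to 295801 CPM in sham and 288506 to 317861 CPM in TAC, where CPM are counts scaled to a library total of 1000000 miRNA counts. miRNAs known from other cells were present too. miR-126a-3p and miR-126a-5p of endothelium summed to 49248 to 72051 CPM in sham and 29274 to 34557 in TAC, 7 miRNAs of fibroblasts and smooth muscle to 43416 to 51285 and 38355 to 45590 CPM, 5 of leukocytes to 1305 to 2455 and 1051 to 1448 CPM, 3 of red cells to 418 to 1503 and 43.8 to 550 CPM, and 5 of epithelium to at most 330 and 1016 CPM. Among all these marker miRNAs 1 was at 0 in any library, the rare muscle arm miR-1a-2-5p in Sham 4.

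Of the 8 libraries, 2 stood apart, and both bear on the myosin-intron miRNAs. In sham library 2 (Sham 2), miR-206-3p, a miRNA known from skeletal muscle, was at 1390 CPM, against 184 to 251 CPM in the other 7 libraries. miR-133b-3p, which is made from the same locus as miR-206, was not high in Sham 2, at 3108 CPM within a range of 2652 to 4137 CPM over the others. In TAC library 4 (TAC 4) the 5 epithelial miRNAs summed to 1016 CPM, and the next TAC library was at 274 CPM. The values of miR-208b-3p and miR-499-3p and the count ratios, in which these libraries lie at the ends of their groups, are given with and without each. In bulk RNA, fewer cells of a type and less RNA per cell cannot be told apart.

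In sham cardiomyocytes miR-499-5p was the most abundant of the family at 719 ± 93.3 CPM (SD, n = 4), followed by miR-208a-3p at 519 ± 87.2 CPM, and their ranges overlapped. A gap separated these from the minor arms and from miR-208b. miR-208a-5p was at 69.7 ± 2.66 CPM, miR-499-3p at 51.9 ± 18.7 CPM and miR-208b-3p, the arm of the β-myosin gene, last at 41.3 ± 20.4 CPM, with ranges that overlapped among these 3. In TAC cardiomyocytes miR-499-5p (733 ± 72.4 CPM) and miR-208a-3p (427 ± 64.7 CPM) no longer overlapped, while miR-208a-5p (75.8 ± 4.64 CPM), miR-208b-3p (72.6 ± 27.2 CPM) and miR-499-3p (58.6 ± 15.3 CPM) all did. The mature miRNAs are 21 to 23 bases long, so these levels need no correction for length, though ligation and amplification can favour 1 sequence over another. By mean count miR-499-5p ranked 64 and miR-208a-3p 78 of the 697 miRNAs, and miR-208b-3p ranked 183 in sham and 141 in TAC.

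The libraries differed far less in miR-208a-5p than in miR-208b-3p. Within sham the coefficient of variation was 3.82% for miR-208a-5p, 13.0% for miR-499-5p, 16.8% for miR-208a-3p, 36.0% for miR-499-3p and 49.5% for miR-208b-3p, and in TAC it was 6.12%, 9.87%, 15.2%, 26.1% and 37.4%. miR-208b-3p had between 104 and 760 counts in a library and miR-499-3p between 172 and 568, numbers at which counting error is small beside this spread. miR-208a-5p had between 283 and 390 counts in sham, where counting error alone would give a spread at least as large as its 3.82%. That low value is therefore no sign of an unusually steady level.

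**Figure D1:**
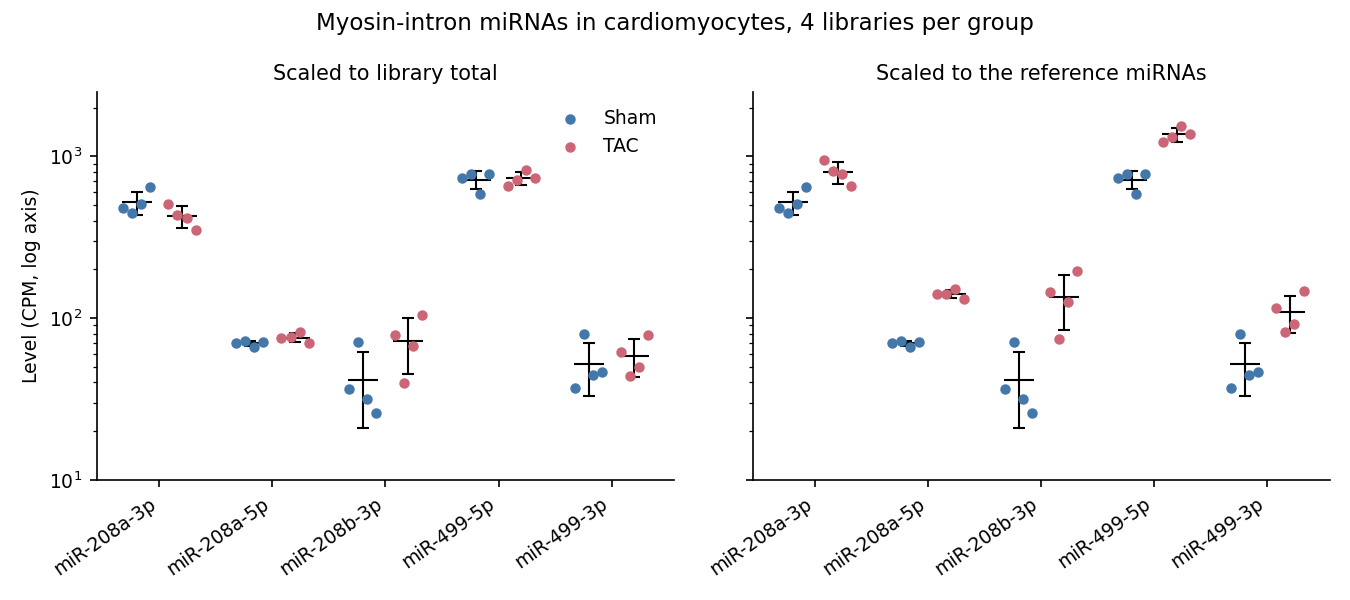
Level of each myosin-intron miRNA (CPM, log axis) in 4 sham (blue) and 4 TAC (red) libraries, shown in order of library number, with mean and SD in black, scaled to the library total (left) or to the 2 reference miRNAs (right). By library total the groups overlap for all 5 miRNAs, and with the reference scaling every TAC library is above every sham library for all 5.

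TAC was compared with sham by edgeR's quasi-likelihood test over the 223 miRNAs with Benjamini-Hochberg adjustment. The study's methods scale to miR-19b-3p and miR-126a-3p, described there as unaltered and checked by quantitative PCR, and values were scaled to that pair here. miR-126a-3p is also 1 of the 2 endothelial miRNAs given above, and the part of endothelial RNA in this scaling was not tested. A miRNA was called when its fold change was above 1.7 and its adjusted p below 0.05. The choice of scaling carries much of the result. By library total both reference miRNAs were lower in every TAC library than in any sham library, miR-126a-3p at 22483 ± 1313 against 39017 ± 10588 CPM and miR-19b-3p at 107 ± 21.4 against 213 ± 36.4 CPM (two-sided exact permutation p = 0.0286 each, the smallest that 4 against 4 allows). Holding them constant raised every TAC value by 0.90 on the log2 scale, and 82 miRNAs were then called higher (36.8%) and 2 lower (0.897%), against 3 and 10 under TMM, which takes most miRNAs as unchanged, and 1 and 23 under library totals. The median log2 fold change over all tested miRNAs was 0.61 with the reference scaling, -0.082 under TMM and -0.29 under library totals, and it is given with the members' values for that reason.

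miR-208b-3p showed the largest change of the family. The 4 sham mice gave 169, 384, 154 and 104 counts of it and the 4 TAC mice 431, 309, 426 and 760, or 36.5, 71.2, 31.4 and 26.0 CPM against 78.3, 39.6, 67.2 and 105 CPM by library total. Sham 2 was above TAC 2 and TAC 3, and the other sham libraries were below every TAC library. With the reference scaling the log2 fold change was 1.71 ± 0.37 (SE, adjusted p = 0.00327), a 3.27-fold higher level in TAC, the fold change of rank 6 among the 223 tested miRNAs, with rank 6 under TMM as well. Under TMM the value was 1.02 ± 0.35 (edgeR, adjusted p = 0.0800) and under library totals 0.81 ± 0.37 (edgeR, adjusted p = 0.129), while DESeq2 with its own size factors gave 1.08 and an adjusted p of 0.0192. Without Sham 2, the only sham library above any TAC library, every TAC library was bound to be above every sham library by library total. So were 5.38% of tested miRNAs, for which no library was picked by its overlap. The edgeR values without Sham 2 were 2.03, 1.43 and 1.21 under the 3 scalings, with adjusted p of 0.00163, 0.0281 and 0.0299, so that it was called under each, where 32.7%, 1.82% and 0.909% of the miRNAs tested were called higher. Without TAC 4, its highest library, they were 1.53, 0.83 and 0.57, with adjusted p of 0.00557, 0.144 and 0.266, and it was called with the reference scaling only.

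miR-208a-3p, from the α-myosin gene, stayed close to the middle of all tested miRNAs. It had 2211, 2418, 2476 and 2584 counts in sham and 2798, 3378, 2646 and 2531 in TAC, which by library total is 478, 448, 505 and 645 CPM against 508, 433, 417 and 350 CPM. The groups overlapped, with the lowest value in TAC 4 and the highest in Sham 4. Its log2 fold change was 0.62 ± 0.16 with the reference scaling (edgeR, adjusted p = 0.00915) beside the median of 0.61 over all tested miRNAs. At 1.53-fold it was below the fold threshold, and the sign turned under TMM (-0.079 ± 0.19, edgeR, adjusted p = 0.789) and library totals (-0.28 ± 0.16, edgeR, adjusted p = 0.228). Without Sham 2 the reference-scaled value was 0.47 with an adjusted p of 0.0528, and without Sham 3 it was 0.52 with an adjusted p of 0.0504. Without TAC 4 the TMM value was 0.032 (edgeR, adjusted p = 0.915), again with the sign turned.

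The other arm of the same hairpin, miR-208a-5p, had 323, 390, 324 and 283 counts in sham and 416, 593, 517 and 507 in TAC. By library total these were 69.8, 72.3, 66.0 and 70.6 CPM against 75.5, 76.0, 81.5 and 70.2 CPM, a narrow band in which the groups still overlapped through TAC 4. The log2 fold change was 1.02 ± 0.13 with the reference scaling (edgeR, adjusted p = 2.05e-04) and 0.33 ± 0.14 under TMM (edgeR, adjusted p = 0.138).

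miR-499-5p, the leading arm of the Myh7b hairpin, had 3414, 4198, 2853 and 3111 counts in sham and 3610, 5554, 5258 and 5315 in TAC, or 738, 778, 581 and 777 CPM against 656, 712, 829 and 736 CPM. By library total the groups overlapped over most of their range. With the reference scaling it was 1.90-fold higher in TAC, at a log2 fold change of 0.93 ± 0.14 (edgeR, adjusted p = 5.52e-04), against 0.23 ± 0.14 under TMM (edgeR, adjusted p = 0.290) and 0.029 ± 0.14 under library totals (edgeR, adjusted p = 0.891). Without Sham 3, the lowest of the sham libraries, the reference-scaled value was 0.75 and fell short of the fold threshold.

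Its minor arm miR-499-3p had 172, 427, 218 and 187 counts in sham and 341, 344, 315 and 568 in TAC, which is 37.2, 79.2, 44.4 and 46.7 CPM against 61.9, 44.1, 49.7 and 78.6 CPM. The highest values of the groups, in Sham 2 and TAC 4, were those of the same libraries that led in miR-208b-3p. The log2 fold change was 1.07 ± 0.27 with the reference scaling (edgeR, adjusted p = 0.00718) and 0.38 ± 0.27 under TMM (edgeR, adjusted p = 0.340). Without Sham 2 the values with the reference scaling, TMM and library totals were 1.27, 0.68 and 0.45 (edgeR, adjusted p = 0.00320, 0.0926 and 0.193), and without TAC 4 they were 0.95, 0.24 and -0.0022 (edgeR, adjusted p = 0.0120, 0.528 and 0.998).

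In all, 4 of the 5 miRNAs were called higher with the reference scaling, where 36.8% of all tested miRNAs were, and 0 of 5 under TMM (edgeR), where 1.35% were called higher and 4.48% lower, and under library totals, where 0.448% were called higher and 10.3% lower. At an unadjusted p below 0.05 edgeR with TMM had 2 of 5 higher, miR-208a-5p and miR-208b-3p, where 12.1% of all tested miRNAs were, and with library totals it had 0 of 5, where 4.04% were. By the adjusted p and the fold threshold, DESeq2 with its own size factors called 1 of 5 higher, miR-208b-3p, and 2.24% of all tested miRNAs. With the reference scaling the adjusted p of edgeR was below 0.05 for 5 of 5, against a background of 63.7%. On reference-scaled CPM all 5 had every TAC library above every sham library, as did 54.7% of the tested miRNAs, and by library total 0 of 5 did, against 3.59%. The median log2 fold change of the 5 was 1.02, 0.33 and 0.12 under the 3 scalings. These fits take the reference factor as known. When it was computed anew in each of the 70 arrangements of the libraries, the two-sided exact permutation p of the reference-scaled log2 CPM was 0.0286 for miR-208a-5p, miR-208b-3p, miR-499-5p and miR-499-3p and 0.0857 for miR-208a-3p. This p was not computed for the other tested miRNAs, so how common 0.0286 was among all of them is not known. Both reference miRNAs had a p of 0.0286 by themselves, so this p also carries their separation of the groups. It is no separate support for a change of the members. By library total the exact permutation p of log2 CPM was 0.8 for miR-499-5p, 0.543 for miR-499-3p and 0.143 for miR-208a-3p. For miR-208a-5p and miR-208b-3p it was 0.0857.

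**Figure D2:**
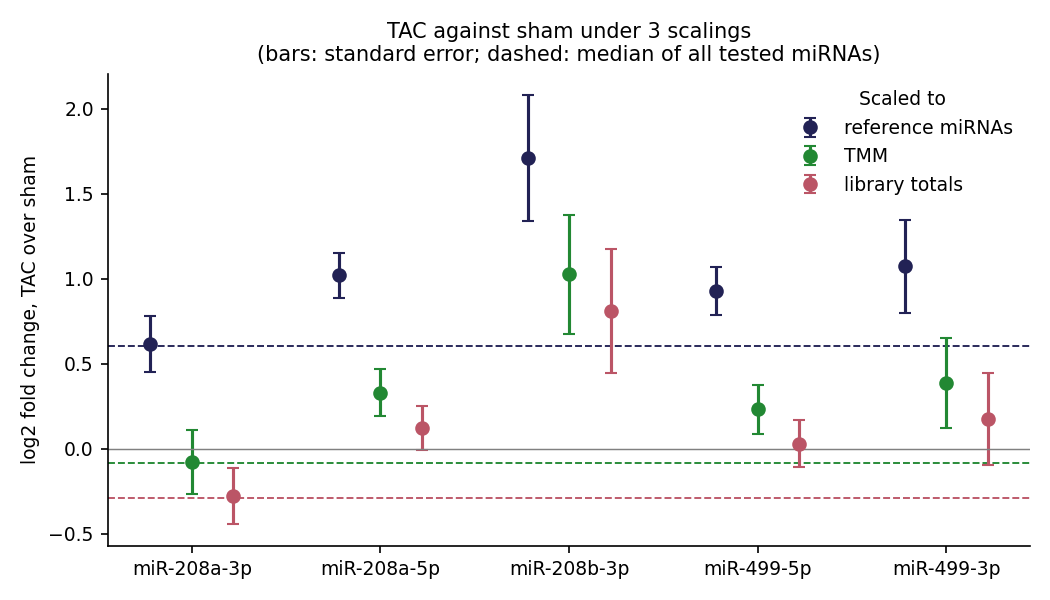
log2 fold change of TAC over sham (edgeR) for each myosin-intron miRNA under 3 scalings, with standard errors as bars and the median of all 223 tested miRNAs as dashed lines of the same colour. miR-208a-3p sits on the median line under each scaling (0.62 beside 0.61 with the reference scaling) and miR-208b-3p is the farthest above it (1.71).

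A ratio of 2 counts within a library does not depend on any of these scalings. For each 100 counts of miR-208a-3p, sham libraries 1 to 4 held 7.64, 15.9, 6.22 and 4.02 counts of miR-208b-3p and TAC libraries 1 to 4 held 15.4, 9.15, 16.1 and 30.0. As ratios, sham averaged 0.0844 ± 0.0518 and TAC 0.177 ± 0.0881 (SD over 4 mice a group). The TAC ratios were thus 2.17-fold higher on average, a log2 difference of 1.12, but 1 sham library lay among them and the difference did not pass the two-sided exact permutation test (p = 0.0857, 0.214 after Benjamini-Hochberg adjustment over 5 ratios).

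That library was Sham 2. Its share of miR-208b-3p in the sum of both miRNAs was 13.7% (95% Wilson interval 12.5 to 15.0), above TAC 2 at 8.38% (7.53 to 9.32) and beside TAC 1 at 13.3% (12.2 to 14.6) and TAC 3 at 13.9% (12.7 to 15.1). The other sham libraries were at 7.10% (6.14 to 8.20), 5.86% (5.02 to 6.82) and 3.87% (3.20 to 4.67), and TAC 4 at 23.1% (21.7 to 24.6). Counting error, which is all these intervals cover, was small beside the differences between libraries.

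Without Sham 2 the 3 remaining sham ratios averaged 0.0596 ± 0.0182 and lay below all 4 TAC ratios, with a log2 difference of 1.48 or 2.80-fold and an exact permutation p of 0.0571, the smallest that 3 against 4 can give. Sham 2 was the only sham library above any TAC ratio, so leaving it out was bound to end the overlap. Of the ratios of all 222 other tested miRNAs to miR-208a-3p, 13.5% also had every TAC library above every sham library once Sham 2 was left out, and 8.56% did with all libraries. For those ratios no library was picked by its overlap, so the 13.5% is not a like background. Leaving out TAC 4, the library with the highest ratio, brought the log2 difference down to 0.82 (exact permutation p = 0.171), and leaving out both gave 1.19 with p = 0.100, the smallest for 3 against 3.

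**Figure D3:**
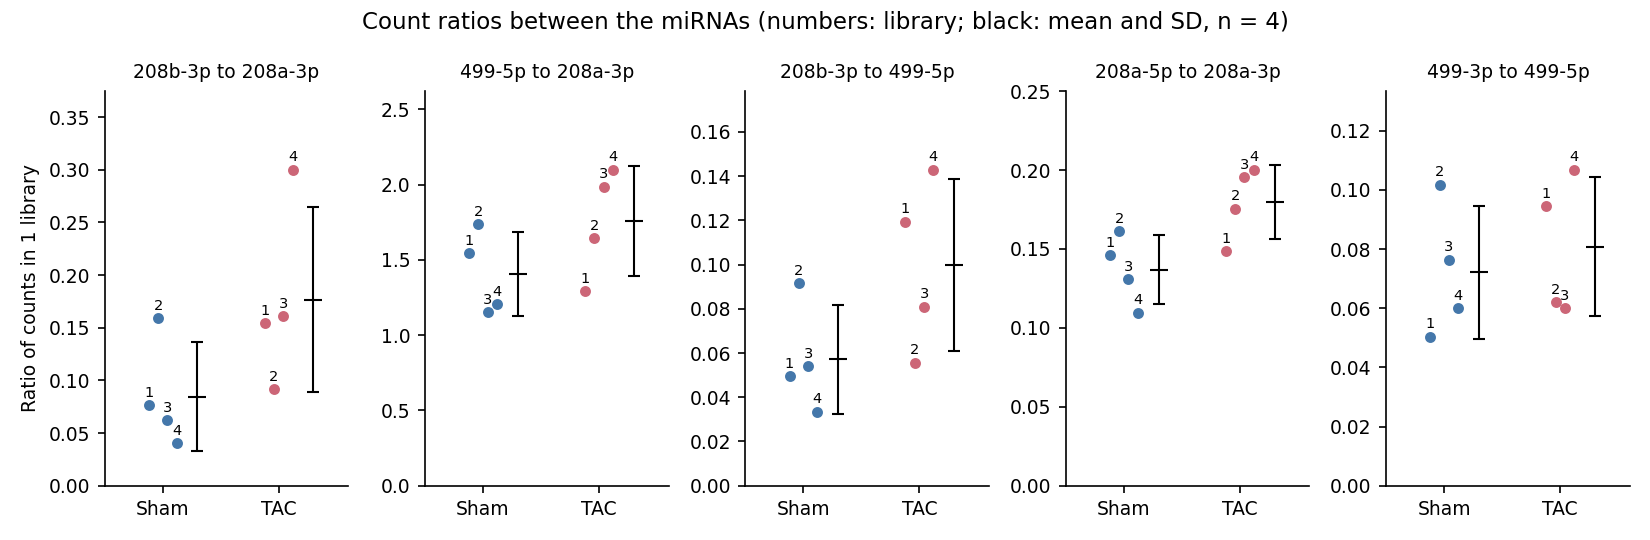
Count ratios between the myosin-intron miRNAs in each of 4 sham (blue) and 4 TAC (red) libraries, numbered, with mean and SD in black, each panel on its own axis from 0. In the first panel Sham 2 (0.159) lies among the TAC libraries and TAC 4 (0.300) above all others.

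Among the sham libraries Sham 2 was the highest in miR-206-3p, miR-208b-3p and miR-499-3p. Relative to the mean of the other 3 sham libraries it had 6.24 times the CPM of miR-206-3p, 2.28 times that of miR-208b-3p and 1.85 times that of miR-499-3p. By the same measure it had 0.83 times miR-208a-3p, 1.05 times miR-208a-5p, 1.11 times miR-499-5p, 0.99 times miR-1a-3p, 0.84 times miR-133a-3p and 1.06 times miR-133b-3p. Over the mean of the other 7 libraries, TAC included, it had 6.14 times miR-206-3p, 1.53 times miR-499-3p and 1.3 times miR-208b-3p, which ranked 2, 18 and 54 of the 223 tested miRNAs by that measure, so that many others stood out more in Sham 2 than miR-208b-3p did. Myh7 and miR-208b are also expressed in slow skeletal muscle, as is miR-499. The part of RNA from other muscle in the miR-208b-3p value of Sham 2 was not tested. TAC 4, with the highest ratio of all, had 243 CPM of miR-206-3p, within the range of the other libraries, and the part of its epithelial miRNAs in its ratio was not tested.

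**Figure D4:**
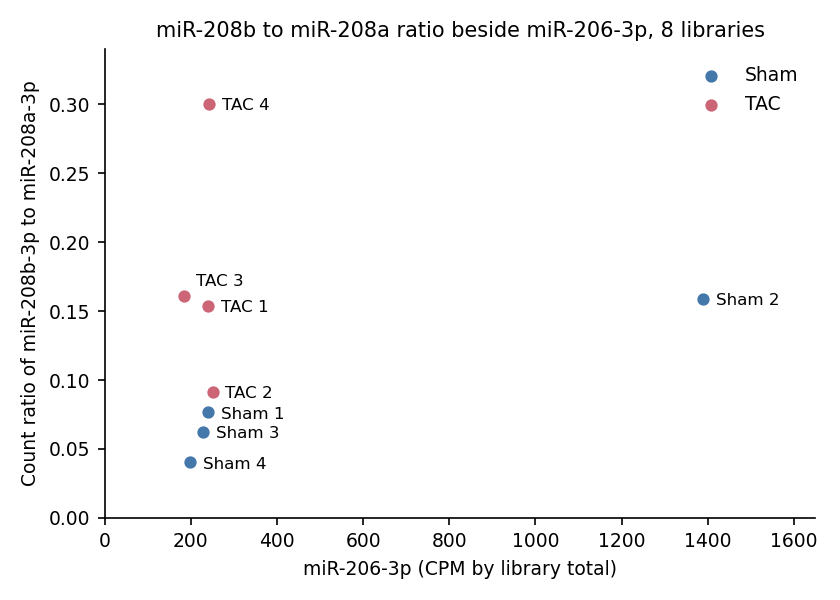
Count ratio of miR-208b-3p to miR-208a-3p against the level of miR-206-3p (CPM by library total) in 8 labelled libraries, sham in blue and TAC in red. Sham 2 is alone at 1390 CPM of miR-206-3p with a ratio of 0.159, and among the other 7 libraries, at 184 to 251 CPM, every TAC ratio is above every sham ratio.

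Against miR-499-5p instead of miR-208a-3p, miR-208b-3p gave a like picture. The ratios were 0.0495, 0.0915, 0.0540 and 0.0334 in sham and 0.119, 0.0556, 0.0810 and 0.143 in TAC, again with Sham 2 among the TAC libraries. The log2 difference was 0.81 (exact permutation p = 0.143, adjusted 0.214). Without Sham 2 it was 1.06 with no overlap (exact permutation p = 0.0571, the smallest possible). Sham 2 was the only sham library above any TAC library, so leaving it out was bound to end the overlap. The groups also did not overlap for 1.35% of all ratios to miR-499-5p, for which no library was picked by its overlap. Without TAC 4 the log2 difference was 0.60 (exact permutation p = 0.229). The ratio of miR-499-5p to miR-208a-3p, which leaves miR-208b out, was 1.54, 1.74, 1.15 and 1.20 in sham and 1.29, 1.64, 1.99 and 2.10 in TAC. These groups overlapped with or without Sham 2, and the log2 difference of 0.31 did not pass (exact permutation p = 0.171, adjusted 0.214). The difference was 0.42 without Sham 2 and 0.22 without TAC 4 (exact permutation p = 0.114 and 0.371).

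The arms of a hairpin are cut from 1 precursor, so their ratio does not depend on how much of the host transcript was made. For miR-208a the 5p arm was the minor one, at 0.146, 0.161, 0.131 and 0.110 of the 3p arm in sham and 0.149, 0.176, 0.195 and 0.20 in TAC. TAC 1 was the only TAC library that fell within the sham range. Only Sham 2 was above it, so leaving out Sham 2 was bound to end the overlap. The log2 difference was 0.40, or 1.32-fold, with an exact permutation p of 0.0571 (adjusted 0.214), and without Sham 2 the groups no longer overlapped, at 0.48 and p = 0.0571, while without TAC 4 the value was 0.34 (p = 0.114). Over the 43 hairpins with both arms tested, the groups did not overlap in 4.65% toward a higher and 4.65% toward a lower share of the minor arm in TAC, without Sham 2 9.3% did toward a higher one, and the median log2 difference was 0.093. For miR-499 the 3p arm was at 0.0504, 0.102, 0.0764 and 0.0601 of the 5p arm in sham and 0.0945, 0.0619, 0.0599 and 0.107 in TAC, with a log2 difference of 0.17 (exact permutation p = 0.600). That difference was 0.35 without Sham 2 and 0.017 without TAC 4 (exact permutation p = 0.286 and 0.971).

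The family was a small part of all miRNA counts in both groups. The 5 arms together made up 0.140 ± 0.0143% of the miRNA counts in sham and 0.137 ± 0.00600% in TAC (two-sided exact permutation p = 0.686), and the ranges of 0.123 to 0.157% and 0.131 to 0.145% overlapped. Within the 3 leading arms, miR-208a-3p made up 40.6 ± 5.13% in sham and 34.7 ± 5.12% in TAC (exact permutation p = 0.143), miR-499-5p 56.1 ± 3.89% and 59.4 ± 4.61% (p = 0.229) and miR-208b-3p 3.25 ± 1.57% and 5.90 ± 2.30% (p = 0.0857). No difference among these 4 shares passed the test. miR-208b-3p remained the smallest of the leading arms in every library, with 8.83% of them at most, in TAC 4.

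The likeness of a pair of miRNAs was measured by the SD over the 8 libraries of the log2 ratio of their counts, in which a small value means that they kept in step. miR-208a-3p was most like miR-490-3p (SD 0.14), miR-152-3p (0.16) and miR-139-3p (0.17), where the median over all tested miRNAs was 0.37. Its own 5p arm came only at rank 61 (0.29), and miR-208b-3p had an SD of 0.93. miR-499-5p was most like miR-145a-3p (0.11), miR-361-5p (0.12) and miR-208a-5p (0.13), where the median stood at 0.39. miR-208b-3p had no close match, with miR-499-3p nearest (0.46), then miR-320-3p (0.57) and miR-1249-3p (0.57), against a median of 0.85. miR-208a-5p was thus closer to miR-499-5p than to the other arm of its own hairpin. The pair of miR-208b-3p and miR-499-3p was looser, and Sham 2 and TAC 4 were the highest libraries of their groups in both.

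Of the other striated muscle miRNAs, 7 of 10 tested were called higher with the reference scaling and 0 lower. Of all tested miRNAs 36.8% and 0.897% were. Under TMM edgeR called 0 either way, beside 1.35% and 4.48%. Library totals gave 0 higher and 1 lower, beside 0.448% and 10.3%. DESeq2 with its own size factors called 1 higher, beside 2.24%. Under TMM an adjusted p below 0.05 without the fold threshold was reached by 2 that were higher and 1 that was lower. The share of all tested miRNAs by that rule is not given here. The lower one was miR-30a-5p, at -0.72 (edgeR, adjusted p = 0.0196). An unadjusted p below 0.05 under TMM was reached by 3 that were higher, beside 12.1%, and 1 that was lower. The median log2 fold change of the 10 was 0.87 with the reference scaling and 0.19 under TMM. miR-1a-3p, the most abundant muscle miRNA, had 1.44 and 0.74 under the 2 scalings (edgeR, adjusted p = 8.2e-05 and 0.0196), above miR-208a-3p and below miR-208b-3p with the reference scaling. miR-133a-3p had 0.79 and 0.12 (edgeR, adjusted p = 0.00444 and 0.688) and miR-206-3p -0.27 and -0.93 (edgeR, adjusted p = 0.700 and 0.290), or 0.86 with the reference scaling once Sham 2 was left out (edgeR, adjusted p = 0.00435). Of 8 tested miRNAs linked to cardiac stress, 1 was called higher with the reference scaling, beside 36.8% of all tested miRNAs. Without Sham 1 there were 3. The 1 called with all libraries was miR-29b-3p at 0.92 (edgeR, adjusted p = 0.00105), which had 0.23 under TMM (edgeR, adjusted p = 0.348). Under TMM, library totals and DESeq2's own size factors 0 of the 8 were called higher and 1 lower. Of all tested miRNAs 1.35%, 0.448% and 2.24% were called higher, and under the first 2 4.48% and 10.3% lower. At an unadjusted p below 0.05, 0 of the 8 were higher under each, and 1, 3 and 1 were lower. The 3 under library totals were miR-23a-3p, miR-199b-5p and miR-25-3p. The one called lower, singled out after its values were seen, was miR-199b-5p, at -0.38 with the reference scaling and -1.07 under TMM (edgeR, adjusted p = 0.105 and 0.00740). miR-21a-5p, often raised in overloaded hearts, had 0.60 (edgeR, adjusted p = 0.0723), with its sign turned to -0.089 under TMM.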

How the data were processed

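Cardiomyocyte small RNA from 8 mice, 4 sham and 4 TAC by the sample labels, was analysed. The deposited tables hold whole-number read counts per mature miRNA, without normalization by the authors. The submitters' processing notes name mm10 and StringTie 1.3.1, and the aligner, the miRNA reference and the handling of reads that fit several miRNAs are not given in the sources used here. No pair among the 28 pairs of libraries was a copy.

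CPM are counts scaled to a library total of 1000000 miRNA counts (the totals were 4005668 to 7798943). For the reference scaling, mean CPM of miR-19b-3p in TAC was divided by that in sham, likewise for miR-126a-3p, and CPM of the TAC libraries were divided by the geometric mean of both quotients, 0.537. edgeR 4.0.16 in R 4.3.3 (glmQLFit and glmQLFTest, group as the only term) was run on the 223 miRNAs with a mean above 100 counts, with Benjamini-Hochberg adjustment over all of them, and was tested on simulated data first. Standard errors were derived from edgeR's F statistic. Ratios (log2, pseudocount 0.5) and shares were compared by two-sided exact permutation tests over the 70 arrangements of the libraries. Alternatives were TMM, library totals, other reference factors, miR-208a-3p as library size, DESeq2 1.42.0, other filters, a replicate block and leaving out each library. Leaving out a library under TMM or library totals, and leaving out Sham 2 with TAC 4, were added after the data had been seen. Python 3.11.15 with pandas 2.3.3, numpy 2.4.6, scipy 1.17.1 and matplotlib 3.10.9 were used for the rest.

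All members found were described, with the marker lists, the reference miRNAs and the 3 miRNAs most like each leading arm. Of the listed muscle and stress miRNAs, those named in the text beside miR-206-3p were picked after their values were seen. The members and lists were chosen with earlier results of these data known. Mature sequences are from RefSeq and host transcripts from GENCODE vM21, both on GRCm38.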

Additional observations from a re-analysis of the deposited data

Results flagged for a closer look

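Single libraries were compared with the other 3 of their group by Dixon's ratio, for 58 groups of 4 values, of which 4 passed the 95% limit where chance alone would give about 2.9 (1 in 20). No level, ratio or share of the myosin-intron miRNAs was among the 4. In Sham 2 miR-206-3p was at 1390 CPM, with the next sham library at 240 CPM, and this is the library whose ratio of miR-208b-3p to miR-208a-3p lies among those of TAC. In TAC 3 miR-206-3p was low at 184 CPM, with the next TAC library at 240 CPM. In TAC 4, the library with the highest miR-208b-3p, the 5 epithelial miRNAs summed to 1016 CPM beside 274 CPM in the next. In the same library the endothelial miRNAs miR-126a-3p and miR-126a-5p summed to 29274 CPM, the lowest of its group, with the next at 33782 CPM. The part of these in any value of the myosin-intron miRNAs was not tested.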

How the results depend on the processing

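The result that no scaling touches, the ratio of miR-208b-3p to miR-208a-3p, kept its direction under all alternatives run, with log2 differences of 0.82 to 1.48 when each library was left out in turn and 1.06 to 1.19 under the others, and so did the other 4 ratios (0.22 to 0.45 for miR-499-5p to miR-208a-3p, 0.58 to 1.06 for miR-208b-3p to miR-499-5p, 0.30 to 0.49 and 0.011 to 0.35 for the arm ratios of miR-208a and miR-499, each library left out). None of these alternatives gave a p below 0.05, but many could not have. The smallest possible exact p was 0.0571 with 1 library left out and 0.100 without Sham 2 and TAC 4. With sign flips for the replicate block it was 0.125, so these tests cannot show whether the ratios would pass. The scaling decided the calls. The number of members called higher was 0 under TMM, 0 under library totals, 0 with the miR-208a-3p count as library size and 1 with DESeq2's own size factors, and over all miRNAs 3, 1, 1 and 5 were called higher and 10, 23, 1 and 9 lower under the same 4. In that order the log2 fold changes were 0.33, 0.12, 0.39 and 0.38 for miR-208a-5p, 0.23, 0.029, 0.32 and 0.28 for miR-499-5p and 0.38, 0.17, 0.45 and 0.44 for miR-499-3p. They were 1.02, 0.81 and 1.06 for miR-208b-3p under the first 3. miR-208a-3p is held unchanged when its own count is the library size, so it could not be called there. miR-208a-3p turned to -0.079, -0.28 and -0.036 under TMM, library totals and DESeq2's own size factors, and with 1 reference factor per library it had 0.58 (edgeR, adjusted p = 0.0660). With no filter on counts 127 miRNAs were called higher, with no fold change required 142, with a fold change above 2 43, and with miR-19b-3p alone as reference 1 was called lower. Each library left out in turn gave 59 to 106 miRNAs called higher and 1 to 2 lower, 3 (without Sham 3) to 5 (without Sham 4) members called, and reference-scaled log2 fold changes of 0.47 to 0.78 (miR-208a-3p, above an adjusted p of 0.05 without Sham 2 and without Sham 3), 0.91 to 1.14 (miR-208a-5p), 1.51 to 2.03 (miR-208b-3p), 0.75 to 1.06 (miR-499-5p) and 0.92 to 1.27 (miR-499-3p). The same under TMM gave -0.18 to 0.069, 0.30 to 0.40, 0.83 to 1.43, 0.14 to 0.30 and 0.24 to 0.68, and under library totals -0.37 to -0.16, 0.085 to 0.16, 0.57 to 1.21, -0.060 to 0.079 and -0.0022 to 0.45. For miR-208b-3p the adjusted p under TMM and under library totals was below 0.05 only without Sham 2. The difference in the family's share (-0.0033 percentage points) lay between -0.0090 and 0.0022 with each library left out, and was 0.0466 when the 10 most abundant miRNAs were left out of the total (exact permutation p = 0.0857). miR-133a-3p turned to -0.10 under library totals, and miR-21a-5p to -0.089, -0.30 and -0.030 under TMM, library totals and DESeq2's own size factors. miR-206-3p turned to 0.32 in the fit with the replicate block and ranged from -0.60 to 0.86 with each library left out. The cause of these changes was not tested. The study sequenced sham and TAC mice in pairs, but same-numbered libraries did not deviate together (correlations of 0.17, -0.37, 0.31 and -0.22), not every library correlated best with its own number, and the replicate block gave 76 called higher and 3 lower, 4 members called, a miR-208b-3p value of 1.76 (edgeR, adjusted p = 0.0173) and, for the ratio of miR-208b-3p to miR-208a-3p, an exact sign-flip permutation p of 0.250. The smallest count behind any member was 104. With 4 mice a group, the exact tests over the 70 arrangements are limited to a p of 0.0286. The sign-flip test is limited to 0.125, so it could not reach 0.05.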
